A study of Mus musculus with 283 samples.

Results

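A set of 9 genes was followed across mouse mammary tumours: Clec9a, Xcr1, Xcl1, Batf3, Irf8, Itgae, Flt3, Cadm1 and Tlr3. The genes were taken by name from the tumour expression table, where these 9 stood among 45657 gene entries kept, and all 9 passed the filter on low values. Values are log2(signal + 1), where signal is the gene-level value that the authors scaled to a common upper quartile in each library. The signal is not divided by gene length, so levels are compared between samples and not between genes.

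RNA had been sequenced from 264 tumour or gland libraries and from 6 lines in culture, 270 in all. The labels state that tumours grew orthotopically in the mammary gland of syngeneic mice, which were allotted to arms at a diameter of 5 mm. KPB-Primary, C3-TAG, PyMT and ILC-Pik3Ca/Cdh1Null had untreated end-stage tumours only, so this account of arms does not describe them. Treated mice received anti-PD1 at 10 mg per kg together with anti-CTLA4 at 125 ug, here called therapy, and the other mice are labelled as without therapy. The labels class models by response, and tumours were collected at 3 days, at 7 days or at end stage.

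The sensitive models with both arms were T11-UV, T11-Apobec, KPB25L and KPB25L-UV. They had 15 treated and 17 untreated mice at 3 days, 18 and 15 at 7 days, and 16 and 20 at end stage. KPB25L-Apobec, also classed as sensitive, had untreated tumours at 3 days only. The resistant models with both arms were T11, p53-2225L and p53-2336R, with 14 treated and 11 untreated mice at 3 days and 13 and 18 at end stage. T11 was the only resistant model at 7 days, with 4 mice in each arm. Untreated 3-day tumours were also held from the resistant models p53-2153F, p53-2224L, p53-9263-3 and KPB-1A. The mice of a transplanted model share 1 tumour origin, and the UV and Apobec models carry the name of T11 or KPB25L as derivatives. The labels give an unknown response for 62 tumours of 13 models. Untreated end-stage tumours of 4 of these models were compared with normal glands. They came from KPB-Primary (K14-Cre with floxed Brca1 and p53, where the keratin 14 promoter drives Cre in epithelium), C3-TAG, PyMT and ILC-Pik3Ca/Cdh1Null, with 24, 11, 5 and 10 mice. The deposited table heads C3-TAG as resistant where the labels give its response as unknown, and the labels were used. The 9 normal glands came from 5 BALB/c and 4 FVB samples, of which 4 are named as pooled glands.

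Depth, estimated from the steps between small values, ran from 3.47 to 149.6 M reads (median 51.4 M), and 1 read stood at 0.50 to 4.37 log2(signal + 1), with a median of 1.01. All 47 untreated libraries labelled 3 days are headed as pretreatment in the deposited table, so the 3-day comparison set treated tumours against tumours that may have been taken before treatment. Of the KPB25L-UV libraries, 6 held transcripts of T11 tumours (means above 5 over 50 T11 genes), 4 of them at 7 days. These were treated replicates 1 and 5 and untreated replicates 3 and 4. The others were untreated replicate 3 at 3 days and untreated replicate 2 at end stage. Over these T11 genes, tumours of T11 and its derivatives had means of 7.38 to 9.79. Untreated replicates 3 and 4 at 7 days, at 8.84 and 8.75, and replicate 2 at end stage, at 8.59, lay within that range. The rest of these libraries had means of 6.44 to 7.25. In T11-UV at 7 days the arms lay on different flow cells, so arm and flow cell cannot be told apart within that model. The other 3 sensitive models and T11 had both arms on the same flow cells at 7 days. Within a group the libraries carry different mouse numbers, except that 1 untreated KPB25L mouse at 7 days had 2 libraries, which were averaged. The 4 treated T11-UV mice at 7 days carry the same mouse numbers as 4 treated KPB25L-UV mice at end stage, and since model and time differ they were kept as separate mice.

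The cross-presenting, or type 1 conventional, dendritic cell takes up material from dying cells and shows peptides from it on MHC class I to CD8 T cells. Its development rests on the growth factor receptor Flt3 and on the transcription factors Irf8 and Batf3. Its surface carries Clec9a, which binds exposed actin of dead cells, Xcr1, the receptor for the chemokine Xcl1, the integrin chain Itgae (CD103) and the adhesion molecule Cadm1, and its endosomes carry Tlr3, which senses double-stranded RNA. Xcl1 itself is made mainly by NK cells and CD8 T cells, and it draws cells with Xcr1 towards them. Several of these genes are not restricted to the cell: Cadm1 and Tlr3 are active in epithelium, Irf8 in macrophages and B cells, and Itgae in tissue T cells.

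The promoters of Clec9a, Xcr1 and Batf3 are shown because these 3 genes carried the largest differences at 7 days. RefSeq gave promoter windows for 7 of the 9 members, with 250 bases before and 50 bases after the start, on GRCm38.p6. Capitals mark the only match to any of 3 motifs searched on both strands, TGANTCA (AP-1), GAAANNGAA (interferon-stimulated response element) and GGAANNGAA (Ets-Irf composite). GAAANNGAA and GGAANNGAA can overlap one another. Each is written 5′ to 3′ on the strand of the gene, Clec9a at chr6:129408612-129408911 on the plus strand, Xcr1 at chr9:123861980-123862279 on the minus strand and Batf3 at chr1:191098164-191098463 on the plus strand.
Clec9a: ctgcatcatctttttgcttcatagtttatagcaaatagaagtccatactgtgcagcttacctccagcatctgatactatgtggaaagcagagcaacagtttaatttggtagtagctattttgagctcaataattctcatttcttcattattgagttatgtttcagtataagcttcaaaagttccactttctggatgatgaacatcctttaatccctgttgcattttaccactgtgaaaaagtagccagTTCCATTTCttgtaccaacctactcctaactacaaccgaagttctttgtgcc
Xcr1: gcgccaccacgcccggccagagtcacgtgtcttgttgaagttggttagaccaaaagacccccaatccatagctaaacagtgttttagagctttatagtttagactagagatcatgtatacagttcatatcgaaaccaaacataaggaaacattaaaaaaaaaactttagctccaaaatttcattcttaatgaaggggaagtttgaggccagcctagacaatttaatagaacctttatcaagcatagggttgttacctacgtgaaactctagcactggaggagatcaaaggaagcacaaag
Batf3: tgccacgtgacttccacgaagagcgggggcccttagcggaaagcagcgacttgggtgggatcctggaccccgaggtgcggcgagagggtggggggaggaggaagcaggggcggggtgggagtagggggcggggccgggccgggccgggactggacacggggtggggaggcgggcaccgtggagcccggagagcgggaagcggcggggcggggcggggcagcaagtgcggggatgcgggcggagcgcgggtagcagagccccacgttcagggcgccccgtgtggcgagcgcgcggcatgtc
The match in Clec9a, TTCCATTTC, was GAAANNGAA read on the opposite strand and began 2 bases before the start. GAAANNGAA stood in 8.6% of the 32851 RefSeq windows of this length, TGANTCA in 7.8% and GGAANNGAA in 8.2%. The windows differed in base composition: G and C made up 37.0% of the Clec9a window, with 1 CpG, 40.0% of the Xcr1 window, with 6, and 75.7% of the Batf3 window, with 34. The median over all windows was 52.7% with 7 CpGs.

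After 7 days of therapy, 6 of the 9 genes were higher in the sensitive models, and none was lower. Clec9a rose by 1.48 ± 0.27 log2 (SE, limma, adjusted p = 6.27e-06), Xcr1 by 1.42 ± 0.35 (adjusted p = 0.000716) and Batf3 by 1.71 ± 0.30 (adjusted p = 3.53e-06). Irf8 rose by 0.91 ± 0.18 (adjusted p = 2.92e-05), Flt3 by 1.06 ± 0.33 (adjusted p = 0.00686) and Cadm1 by 0.54 ± 0.17 (adjusted p = 0.00985). Of all 20849 genes tested, 15.5% were called higher in this comparison. The median difference was 0.96 over the 9 members and -0.07 over all genes. Bulk tumour RNA cannot tell more cells of a type from more RNA per cell.

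Clec9a is the receptor for dead cells. In T11-UV it stood at 8.90, 9.15, 8.52 and 9.61 in the treated mice and at 6.86, 5.63, 4.84 and 5.35 in the untreated mice. In T11-Apobec the treated mice held 9.68, 8.89, 8.85 and 9.82 and the untreated mice 7.995, 7.48, 6.99 and 7.13. In both models every treated mouse lay above every untreated mouse. How many of all genes part the groups without overlap was not counted, for this or any later comparison. In KPB25L the treated mice held 7.35, 8.54, 8.40 and 8.13, against 7.97 and 7.98 in 2 untreated mice and 8.10 and 7.91 in the paired libraries of the other one. In KPB25L-UV the 6 treated mice ran from 7.70 to 8.97 with a median of 8.34, and the untreated mice held 8.50, 8.94, 7.83 and 6.26. The arms overlapped in both KPB25L models, and the lowest untreated value, 6.26, belonged to replicate 4, one of the libraries with T11 transcripts.

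Xcr1 and its ligand gene Xcl1 followed other patterns. Xcr1 stood at 7.60, 8.26, 8.60 and 8.83 in treated T11-UV mice and at 7.62, 4.15, 4.11 and 4.57 in untreated ones. Untreated replicate 1 of T11-UV thus lay within the treated range, and the other 3 untreated mice lay far below it. In KPB25L the treated mice held 6.90, 6.002, 6.08 and 7.00. The untreated KPB25L mice held 4.49 and 4.80, and the mouse with paired libraries held 6.30 and 6.74. In KPB25L-UV Xcr1 ran from 7.45 to 9.81 in treated mice, and the untreated mice held 6.48, 6.06, 9.74 and 7.85. The last 2 values, replicates 3 and 4, came from libraries with T11 transcripts, and the untreated mice without them both lay below every treated mouse. In T11-Apobec the arms overlapped, with 6.65 to 8.48 under therapy and 6.53 to 7.34 without.

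Xcl1, the chemokine, averaged 0.96 ± 0.50 higher under therapy (adjusted p = 0.124) and was not called. Its values in treated T11-UV mice were 8.19, 7.99, 8.79 and 8.09, against 7.23, 5.65, 6.24 and 5.78, so the T11-UV arms did not overlap. One untreated KPB25L mouse, replicate 1, was listed at 0, and the other untreated libraries of that model held 6.22 to 8.15, above or within the treated range of 5.63 to 7.26. Leaving out 1 mouse at a time, in 33 fits, gave 6 to 9 called members and 6328 to 8524 called genes, higher and lower together. The highest member count came without KPB25L untreated replicate 2, the mouse with paired libraries, where all 9 members were called higher.

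**Figure D1:**
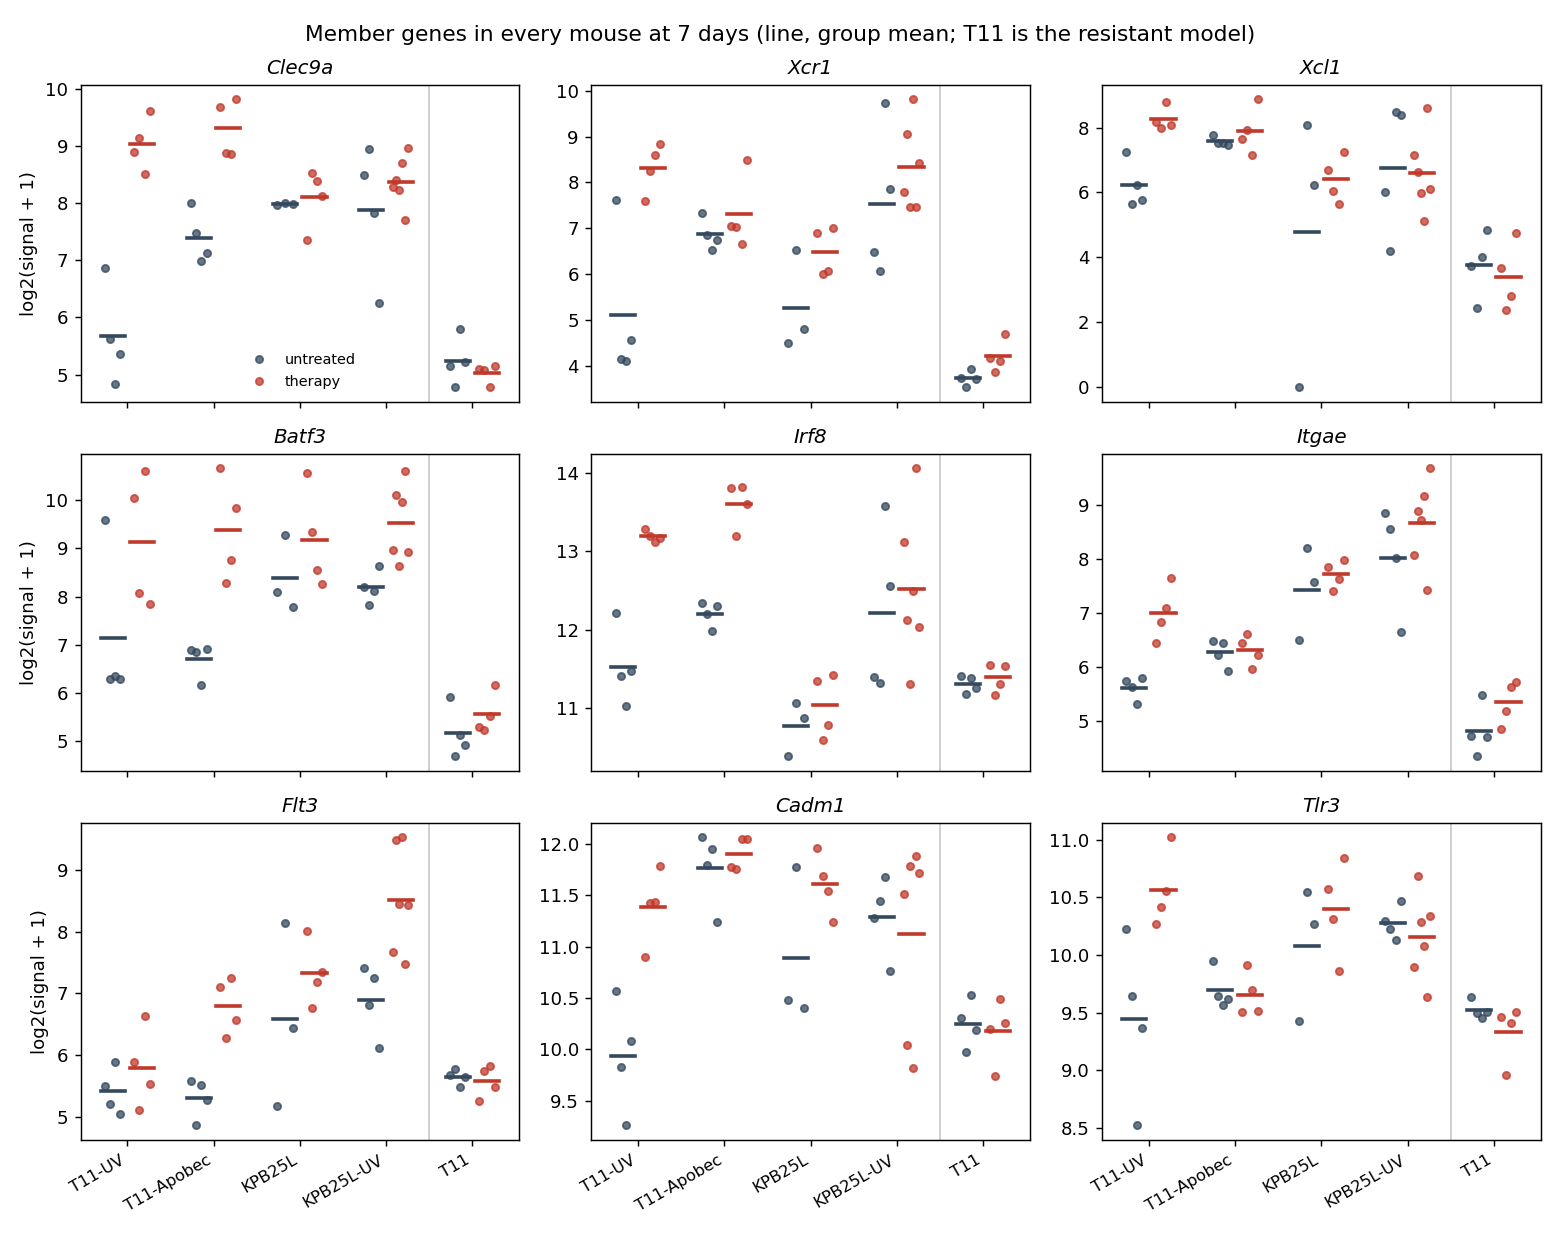
Each panel plots 1 gene as log2(signal + 1) in every mouse at 7 days, by model, with untreated mice in dark grey, treated mice in red and a line at each group mean. Clec9a separates the arms in T11-UV and T11-Apobec, while in T11 the treated values of 4.78 to 5.14 lie among the untreated ones.

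The transcription factors Batf3 and Irf8 rose together in T11-Apobec. Batf3 stood at 10.66, 8.29, 8.77 and 9.85 in treated T11-Apobec mice and at 6.89, 6.84, 6.17 and 6.91 in untreated ones. Irf8 in the same mice stood at 13.81, 13.19, 13.82 and 13.60, against 12.35, 12.20, 11.98 and 12.30. Neither gene overlapped between the arms of T11-Apobec. In T11-UV Irf8 held 13.29, 13.20, 13.12 and 13.18 under therapy and 12.21, 11.41, 11.03 and 11.47 without, again with no overlap. Batf3 in T11-UV varied within both arms, with 10.05, 8.07, 10.60 and 7.85 under therapy and 9.58, 6.29, 6.36 and 6.29 without, so untreated replicate 1 stood above 2 treated mice. In KPB25L Batf3 held 10.56, 9.35, 8.56 and 8.27 under therapy, and the untreated libraries held 7.78 to 9.31. Irf8 in KPB25L ran from 10.60 to 11.43 under therapy and from 10.39 to 11.13 without, so both genes overlapped between the arms there. In KPB25L-UV Batf3 ran from 8.63 to 10.60 under therapy and from 7.83 to 8.64 without, and Irf8 from 11.31 to 14.06 and from 11.32 to 13.57.

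Flt3, the growth factor receptor of dendritic cell precursors, rose in the mean over the 4 models, although its arms overlapped in T11-UV and KPB25L. In KPB25L-UV the treated mice ran from 7.48 to 9.53, and the untreated mice held 7.41, 6.81, 7.26 and 6.12, with no overlap. T11-Apobec mice held 7.11, 6.28, 7.26 and 6.57 under therapy and 5.59, 4.86, 5.52 and 5.27 without, and these arms did not overlap either. T11-UV mice held 5.89, 5.11, 6.64 and 5.54 against 5.49, 5.21, 5.89 and 5.05, where the arms overlapped. In KPB25L Flt3 averaged 7.33 ± 0.52 (SD) under therapy and 6.59 ± 1.49 without, also with overlap.

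The 3 genes of adhesion and sensing moved less. Cadm1, the adhesion molecule that binds Crtam on T cells, stood at 10.90, 11.42, 11.44 and 11.79 in treated T11-UV mice and at 10.57, 9.83, 9.26 and 10.08 in untreated ones, without overlap. In T11-Apobec its treated values of 11.75 to 12.05 lay within the untreated range of 11.24 to 12.06. Tlr3, the sensor of double-stranded RNA, differed by 0.32 ± 0.14 over the 4 models (adjusted p = 0.0658). The integrin chain gene Itgae differed by 0.59 ± 0.28 (adjusted p = 0.0826), and neither Tlr3 nor Itgae passed this test. Pooled over the 4 models, treated mice held Itgae from 5.97 to 9.67 and untreated mice from 5.32 to 8.85. In T11-UV neither gene overlapped between the arms: Itgae averaged 7.01 under therapy and 5.62 without, and Tlr3 10.57 and 9.44. In T11-Apobec, KPB25L and KPB25L-UV both genes overlapped.

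When each sensitive model was taken alone, the members called at 7 days differed. T11-UV had 6, where 4.31% of all genes were called higher: Clec9a at 3.38 ± 0.54 (limma, adjusted p = 6.01e-06), Xcr1 at 3.21, Batf3 at 2.01, Irf8 at 1.67, Cadm1 at 1.45 and Tlr3 at 1.13. T11-Apobec had 3, where 13.7% of all genes were called higher: Clec9a at 1.91 ± 0.54 (adjusted p = 0.0042), Batf3 at 2.69 and Irf8 at 1.40. KPB25L-UV had 1, where 8% of all genes were called higher, namely Flt3 at 1.62 ± 0.59 (adjusted p = 0.0418). KPB25L had 0, where 0% of all genes were called higher, with 587 of them higher at an unadjusted p under 0.05 but no member among these. Differences between the models were not tested. The mean over the 4 models is made of these same mice, so the model values are no separate evidence for it.

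T11-UV weighed on the mean over models. Without it, 4 members were called higher, with Clec9a at 0.84 ± 0.31 (limma, adjusted p = 0.0252), Batf3 at 1.61, Irf8 at 0.66 and Flt3 at 1.28, and Xcr1 at 0.82 (adjusted p = 0.101) and Cadm1 at 0.23 (adjusted p = 0.373) were not called. With flow cell as a term, 5 members were called, and Cadm1 at 0.23 (adjusted p = 0.43) was the one lost. In T11-UV alone that term left 0 members called and took the count over all genes from 1555 to 8 (2 higher and 6 lower), with Clec9a at 2.497 ± 1.26 (adjusted p = 0.29) and Xcr1 at 3.86 ± 1.61 (adjusted p = 0.219). Without the KPB25L-UV libraries that held T11 transcripts, 7 members were called, with Xcr1 at 1.82 and Tlr3 at 0.37 (adjusted p = 0.0395). In KPB25L-UV alone, Xcr1 at 2.41 (adjusted p = 0.0312) was then called and Flt3 at 1.87 (adjusted p = 0.0777) was not. Of the members not called there, Clec9a went from 0.50 to -0.15, Xcl1 from -0.17 to 0.86 and Tlr3 from -0.13 to 0.09. For the mean over models, the main fit called 7641 of all genes, higher and lower together. That count stayed within 1.5 times 7641 without T11-UV, with flow cell as a term and without the libraries with T11 transcripts.

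In T11, the resistant parental model, no member was called after 7 days. Clec9a stood at 5.09, 5.09, 4.78 and 5.14 in treated T11 mice and at 5.16, 4.78, 5.80 and 5.22 in untreated ones. Xcr1 stood at 4.17, 3.86, 4.10 and 4.71, against 3.74, 3.54, 3.94 and 3.71, and Batf3 at 5.30, 5.22, 5.53 and 6.17, against 5.92, 4.69, 5.14 and 4.93. All 3 genes overlapped between the arms. The differences were -0.22 ± 0.54 for Clec9a, 0.48 ± 0.70 for Xcr1, 0.39 ± 0.61 for Batf3 and 0.08 ± 0.36 for Irf8. With limma, 0 members were called, where 0% of all genes were called higher, 31 genes were higher at an unadjusted p under 0.05, and no member was among them.

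The difference between the classes was tested as well. The therapy difference in sensitive models minus that in T11 was 1.69 ± 0.60 for Clec9a (limma, adjusted p = 0.343), made of 1.48 in sensitive models and -0.22 in T11. It was 0.83 ± 0.40 for Irf8 (adjusted p = 0.52), 1.32 ± 0.68 for Batf3 (adjusted p = 0.557) and 0.94 ± 0.78 for Xcr1 (adjusted p = 0.73). With limma 0 members were called, where 0.0048% of all genes, 1 gene, was called higher. At an unadjusted p under 0.05, 2 members and 1065 genes were higher. A single resistant model with 4 mice per arm stands behind this test, so a difference between the classes was not shown for any member.

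At 3 days, the transcription factors were the members called. Batf3 was 1.45 ± 0.31 higher under therapy (limma, adjusted p = 0.00289) and Irf8 was 0.67 ± 0.18 higher (adjusted p = 0.0129), where 6.93% of all genes were called higher. Over all genes, 1444 were higher and 1439 lower, and 2031 and 743 after each library was centred on its median, which left both members called. Clec9a differed by 0.61 ± 0.27 (adjusted p = 0.109), Xcr1 by 0.54 ± 0.36, Xcl1 by 0.74 ± 0.51 and Itgae by -0.41 ± 0.28, and none of these passed. With only the groups compared setting the spread 0 members were called, as were 0 of all genes. With flow cell as a term Batf3 alone of the members was called, and 272 of all genes were (155 higher and 117 lower).

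The early values of Batf3 were uneven within groups. In T11-UV the treated mice held 10.81, 6.13 and 10.24, and the untreated mice held 6.54, 6.64, 6.67 and 5.98. In KPB25L the treated mice held 7.66, 9.96, 8.12, 10.74 and 10.43, and the untreated mice held 7.61, 7.46, 7.24, 7.46 and 8.52. In T11-Apobec the treated mice, at 10.28, 10.48, 9.56 and 9.38, all lay above the untreated ones, at 8.58, 8.04, 8.54 and 7.32. One treated T11-UV mouse and 2 treated KPB25L mice lay within the untreated range of their model, and the rest stood above it. Irf8 was high in the same KPB25L mice, at 12.26, 13.43 and 13.18, with the other 2 at 10.94 and 11.28. In KPB25L-UV, by contrast, the mean of Batf3 was 8.17 under therapy and 8.49 without, and that of Irf8 was 11.40 and 11.94. Without T11-UV treated replicate 1, or without replicate 3, only 1 member was called at 3 days. Over all genes, leaving out 1 mouse at a time gave 145 to 6575 calls, against 2883 with every mouse.

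The therapy difference at 7 days was set against that at 3 days. It was larger by 0.87 ± 0.38 for Clec9a (limma, adjusted p = 0.361), by 0.88 ± 0.50 for Xcr1 (adjusted p = 0.544) and by 1.00 ± 0.39 for Itgae (adjusted p = 0.277), and by 0.26 ± 0.43 for Batf3. No member was called, where 0.504% of all genes were called higher (105 higher and 5 lower, or 63 and 22 after centring). At an unadjusted p under 0.05, 3 members were higher. A later onset of Clec9a and Xcr1 than of Batf3 was therefore not shown.

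At end stage no member was called in the sensitive models. The differences were 0.28 ± 0.26 for Clec9a, 0.21 ± 0.34 for Xcr1, -0.69 ± 0.49 for Xcl1, -0.04 ± 0.29 for Batf3 and 0.03 ± 0.17 for Irf8. With limma 0 members were called, where 0% of all genes were called higher, and 431 genes but no member were higher at an unadjusted p under 0.05. The 16 treated tumours held Xcr1 from 2.13 to 6.23 with a median of 5.09, and the 20 untreated ones from 2.86 to 6.21 with a median of 4.65. The treated 7-day tumours had held Xcr1 from 6.002 to 9.81, with a median of 7.53.

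**Figure D2:**
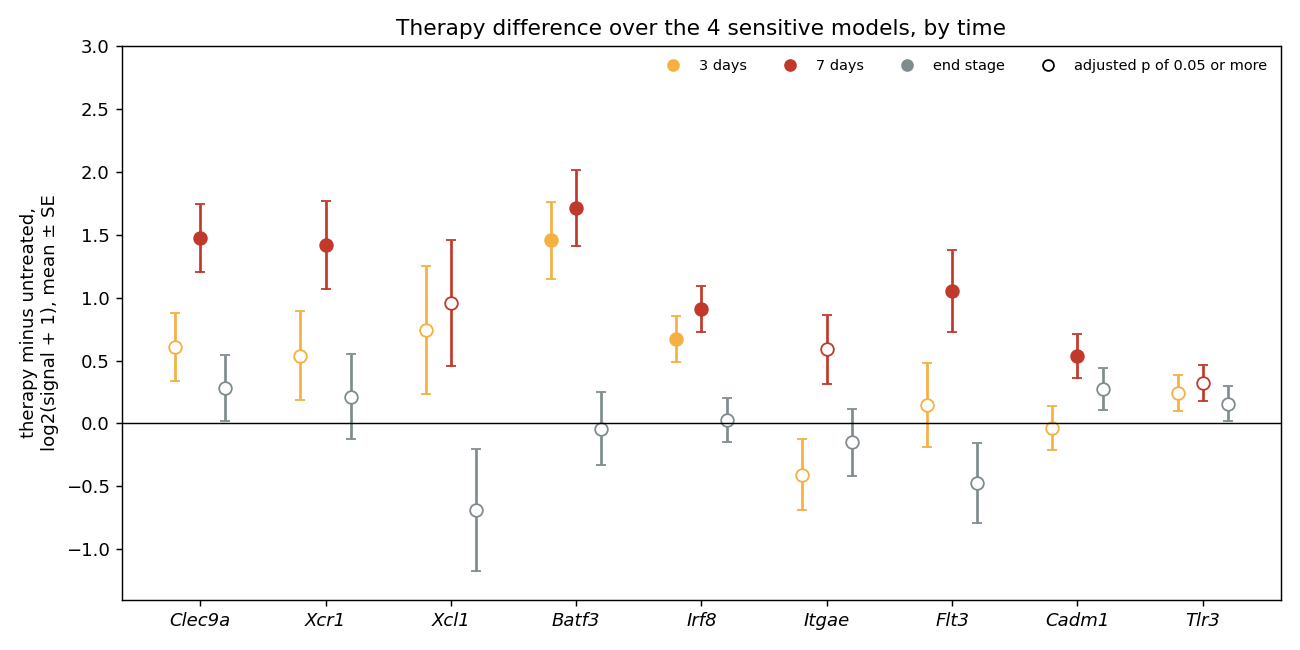
The plot gives the therapy minus untreated difference in log2(signal + 1), mean ± SE over the 4 sensitive models, for each gene at 3 days, 7 days and end stage; filled points passed the test. Batf3 and Irf8 are filled at 3 and 7 days, 4 further genes at 7 days, and no gene at end stage.

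The resistant models gave no called member at either other time. At 3 days the differences were 0.47 ± 0.31 for Clec9a, 0.75 ± 0.40 for Xcr1, 0.95 ± 0.58 for Xcl1, 0.43 ± 0.35 for Batf3 and 0.39 ± 0.21 for Irf8. With limma 0 members were called, where 0% of all genes were called higher and 372 genes but no member were higher at an unadjusted p under 0.05. With flow cell as a term Irf8 was called, at 1.14, as were 114 of all genes (105 higher and 9 lower). At end stage 0 members were called, again where 0% of all genes were called higher, and Batf3, at 0.68 ± 0.32, was the only member among 622 genes higher at an unadjusted p under 0.05. The resistant and sensitive models were not set against each other by a test at these times.

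In untreated tumours of the 7 models with both times, Xcr1, Clec9a and Irf8 were lower at end stage than at 3 days. Xcr1 fell by 1.21 ± 0.25 (from 5.34 to 4.12, limma, adjusted p = 0.000664), Clec9a by 0.78 ± 0.19 (from 6.70 to 5.92, adjusted p = 0.0057) and Irf8 by 0.41 ± 0.13 (from 10.97 to 10.56, adjusted p = 0.0406). Of all genes, 4.29% were called lower (894 lower and 221 higher, or 648 and 730 after centring, which left Irf8 uncalled). Xcl1 at -1.08 ± 0.36 (adjusted p = 0.0545), Itgae at -0.59 ± 0.20 (adjusted p = 0.0577), Batf3 at -0.56 ± 0.22 and Flt3 at -0.52 ± 0.23 did not pass. Cadm1 held 11.26 and 11.33, a difference of 0.07 ± 0.12. With the spread set by only the groups compared, 6 members were called lower, as were 1462 of all genes, with 974 higher.

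A flow cell term could not be estimated over the 7 models. In T11, T11-UV, T11-Apobec and KPB25L-UV no flow cell held untreated tumours of both times, so growth and flow cell cannot be told apart there. The other 3 models had 5 flow cells with both times, with 1 to 4 mice at each time and no test. Xcr1 was lower at end stage on both KPB25L flow cells, with means of 3.81 and then 3.46 on one and 5.50 and then 4.45 on the other. It was not lower on those of p53-2225L, at 1.15 and then 3.36 and at 2.63 and then 2.75, or of p53-2336R, at 4.11 and then 4.38. Clec9a was lower on 3 of the 5 flow cells, with differences from -0.80 to 0.44, and Irf8 on 3 of the 5, with differences from -0.16 to 0.11. The lower level at end stage was thus not seen on every flow cell for any of the 3 genes.

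The growth difference of Xcr1 was uneven between models. In KPB25L-UV Xcr1 averaged 8.32 ± 1.40 (SD, n = 4) at 3 days and 4.37 ± 0.85 (n = 6) at end stage, with no overlap. Libraries with T11 transcripts were among these, replicate 3 at 3 days and replicate 2 at end stage. In T11-Apobec Xcr1 averaged 7.38 ± 1.14 and 5.30 ± 0.76, and Clec9a 8.13 ± 1.09 and 5.67 ± 0.46 (n = 4 each), again with no overlap. In p53-2225L, where Xcr1 was lowest at 3 days, it averaged 1.89 ± 1.31 and then 3.13 ± 0.83, and the times overlapped. The pair of genes parted in KPB25L: Xcr1 averaged 5.09 and then 3.79, while Clec9a averaged 9.04 ± 0.28 (n = 5) and 9.11 ± 0.56 (n = 6).

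Clec9a held a high level in tumours of KPB25L and its derivatives whatever the level of Xcr1. The strain of the host mice was not taken into account where tumour families are set side by side. Over 58 mice of KPB25L, KPB25L-UV and KPB25L-Apobec, at all times and in both arms, Clec9a ran from 4.92 to 9.96 with a median of 8.59, and Xcr1 from 2.12 to 9.81 with a median of 5.92. Below an Xcr1 level of 6, a limit set after the values were seen, 29 of these mice held Clec9a at a median of 8.99. The 46 mice of T11 and its derivatives below that limit held it at a median of 5.34 and a highest value of 6.64, and the 109 mice of other tumours at a median of 4.61 and a highest value of 7.06. Without the libraries with T11 transcripts, the lowest Clec9a value of the remaining 28 KPB25L-family mice was 7.17, above the highest value among the T11-family and other mice below the limit. In the T11 family Clec9a was thus low where Xcr1 was below the limit, and the relation of the 2 genes within that family was not tested. Irf8 did not part the families in that way: below the limit it ran from 10.18 to 11.84 in the KPB25L family and from 10.73 to 11.95 in the T11 family.

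**Figure D3:**
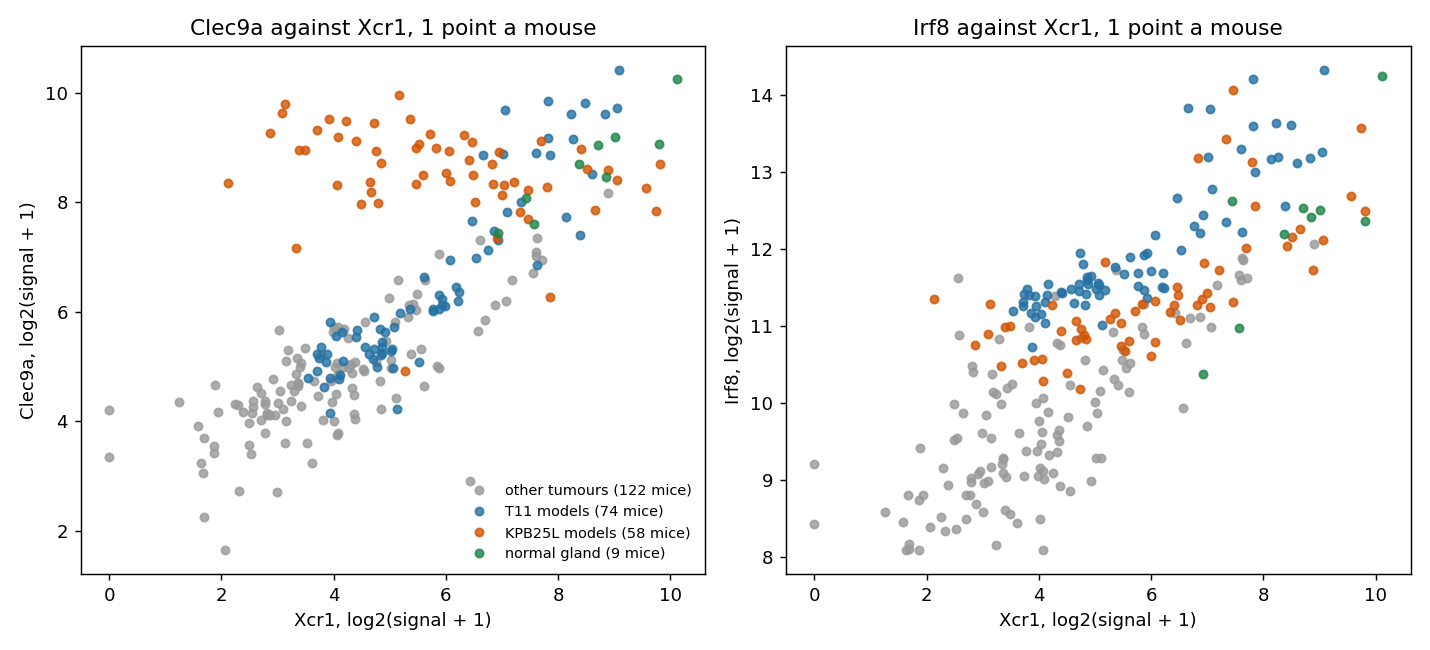
Each point is 1 mouse; the left panel plots Clec9a and the right panel Irf8 against Xcr1, all as log2(signal + 1), coloured by tumour family. KPB25L-family tumours form a band of high Clec9a at a median of 8.59 across the whole range of Xcr1. T11-family tumours below an Xcr1 level of 6 held Clec9a at no more than 6.64.

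The cultured lines, measured as 1 library each and scaled separately from the tumours, were read by their own signal only. Clec9a had a signal of 29.0 in cultured KPB-25L, 53.045 in its V1_5 line and 3.34 in its APOBEC line, where 1 read was worth 0.33 to 0.42. The 3 T11 lines held Clec9a at 0, 0 and 0.63. Xcr1 was at most 0.40 in the KPB lines and 2.84 in the T11 lines, and Xcl1 was listed at 0 in all 6. Irf8 stood at 1.64, 5.58 and 1.67 in the KPB lines and at 61.6, 40.1 and 16.5 in the T11 lines, while Flt3 was listed at 0, 0 and 0.42 against 44.5, 6.63 and 11.3. Cadm1 and Tlr3 had signal in all 6, Cadm1 from 108 to 1377 and Tlr3 from 45.8 to 499. Batf3 held 52.7, 36.3 and 16.7 in the KPB lines and 5.93, 2.52 and 4.51 in the T11 lines. Cultured lines hold no tumour stroma, and the part of tumour cells in the tumour values was not tested.

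The genes most like Clec9a over the 192 fitted mice were neighbours in the natural killer gene complex and the surface genes Ly6c1 and Ly6a. Klrc1 and Klrc2, which encode NKG2 receptors, had Pearson r of 0.91 and 0.90 with Clec9a, Ly6c1 and Ly6a 0.88, and Klrb1b 0.87. Clec9a lies on chromosome 6 at 129408862 to 129424763 in GRCm38, and Klrc2 and Klrc1 lie 222.7 and 241.3 kb from it. Klrc1 followed the families as Clec9a did: below the Xcr1 limit it held a median of 8.68 in the KPB25L family and 3.80 in the T11 family. Its signal in the cultured KPB lines was 91.6, 179 and 134, and it was listed at 0 in all 3 T11 lines. These mice share models, libraries and scaling, and no test was applied to likeness.

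The genes most like Xcr1 and Xcl1 were taken in the same way. For Xcr1 the closest were Klrk1, the activating receptor NKG2D (Pearson r = 0.91 over 192 mice), Gpr132, Gimap3, Cd3e and Gimap7, all at 0.89. For Xcl1 they were the T cell attractant Cxcl9 (0.91), Klrk1 (0.90), the cytotoxic granule gene Nkg7 (0.89), Slamf8 (0.89) and Tgtp2 (0.88). Batf3 had none of these: its closest were Ninj1 (0.88), Atp6v0b (0.84), Tmem160, Idnk and Relt (each 0.83). The 4 members thus shared only Klrk1 among their 5 closest genes, and only between Xcr1 and Xcl1.

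Levels in untreated tumours labelled 3 days were set side by side in 12 models. Clec9a was highest in KPB25L at 9.04 ± 0.28 (SD, n = 5), KPB25L-Apobec at 8.79 ± 0.36 (n = 5), KPB25L-UV at 8.67 ± 0.41 (n = 4) and T11-Apobec at 8.13 ± 1.09 (n = 4). Neighbours in this order overlapped, and a gap with no overlap then parted T11-Apobec from p53-9263-3 at 6.31 ± 0.36. T11-UV, although classed as sensitive, held Clec9a at 5.67 ± 0.43, close to T11 at 5.49 ± 0.80. The lowest level, in p53-2225L at 4.29 ± 0.06, lay below KPB-1A at 4.76 ± 0.33 (n = 2) without overlap.

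The other members were ordered differently. Xcr1 was highest in KPB25L-UV at 8.32 ± 1.40 and T11-Apobec at 7.38 ± 1.14, while KPB25L, first for Clec9a, stood ninth in the order at 5.09 ± 1.32. Xcl1 was highest in T11-Apobec at 8.93 ± 0.80 and lowest in p53-2225L at 0.25 ± 0.50. Batf3 was highest in a resistant model, p53-2153F, at 10.94 ± 0.60, and Flt3 in KPB25L-UV at 8.55 ± 0.83 and p53-2153F at 8.08 ± 0.71. Cadm1 was highest in KPB-1A at 13.87 ± 0.05 and Tlr3 in p53-2224L at 11.59 ± 0.10 and p53-2153F at 11.55 ± 0.75, and all 3 are resistant models. Irf8 ran from 12.78 ± 0.34 in T11-Apobec to 8.56 ± 0.08 in KPB-1A.

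With models as replicates, 5 sensitive against 7 resistant, Clec9a averaged 8.06 and 5.32, a difference of 2.74 ± 0.62 (limma, adjusted p = 0.0568). Xcl1 differed by 3.19 ± 0.91 (adjusted p = 0.0765), Itgae by 2.07 ± 0.55 (adjusted p = 0.0648), Irf8 by 1.84 ± 0.53 (adjusted p = 0.0804) and Xcr1 by 2.14 ± 0.82 (adjusted p = 0.156). Batf3, Flt3, Cadm1 and Tlr3 had adjusted p from 0.404 to 0.831. With limma 0 members were called, where 0% of all genes were called higher. At an unadjusted p under 0.05, 5 members were higher, as were 2251 of 17921 genes. The models share origins, since T11 and KPB25L gave rise to several of them. Leaving out T11 gave 4 called members, where 1352 of all genes were called higher and 876 lower, and leaving out T11-UV gave 1, where 52 were called higher and 12 lower.

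Against normal mammary gland, the untreated tumours of KPB-Primary, C3-TAG, PyMT and ILC-Pik3Ca/Cdh1Null, of unknown response, held less of most members. BALB/c and FVB glands were weighted equally as groups, and tumours were not matched to glands by strain. Clec9a was 3.57 ± 0.28 lower (5.03 in tumours and 8.60 in glands, limma, adjusted p = 1.7e-16), Xcr1 3.80 ± 0.42 lower (adjusted p = 1.42e-11) and Flt3 3.58 ± 0.41 lower (adjusted p = 7.14e-11). Irf8, Itgae and Xcl1 were lower too, with differences of -2.06, -1.99 and -1.95, which made 6 members lower where 27.7% of all genes were called lower. Cadm1 was 1.96 ± 0.26 higher in tumours (adjusted p = 3.29e-09) and Tlr3 1.13 ± 0.21 higher (adjusted p = 5.75e-06), where 31.2% of all genes were called higher. Batf3 differed by -0.34 ± 0.32 (adjusted p = 0.368). In the same comparison 5 of 6 epithelial markers were called higher, and their part in the result was not tested.

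The separation was nearly complete for Clec9a and Cadm1. Of 50 tumours, 49 held less Clec9a than every gland, with glands from 7.44 to 10.25 and tumours from 2.71 to 8.17, and 49 held more Cadm1 than every gland. ILC-Pik3Ca/Cdh1Null tumours stood nearest to the glands for Xcr1 and Flt3, with Xcr1 from 5.49 to 8.89 (median 7.58) and Flt3 from 6.90 to 8.85 (median 8.22). PyMT tumours held Xcr1 from 2.32 to 5.11 (median 4.07) and C3-TAG tumours from 2.497 to 5.87 (median 4.32). Markers of many other cells moved with this comparison: the summed level of 5 B cell markers ran from 10.81 to 17.57 in glands and from 3.70 to 14.63 in tumours, all 5 markers were lower in tumours, and all 6 NK cell markers and all 6 CD8 T cell markers tested were lower. Lower too were 4 of 5 type 2 dendritic cell, 4 of 6 plasmacytoid dendritic cell, 3 of 4 regulatory T cell, 4 of 4 endothelial and 2 of 5 fibroblast markers, and Ptprc, at -2.83. Of 6 macrophage markers 2 were higher and 2 lower. None of these markers was at 0 throughout either group, and their part in the result was not tested.

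**Figure D4:**
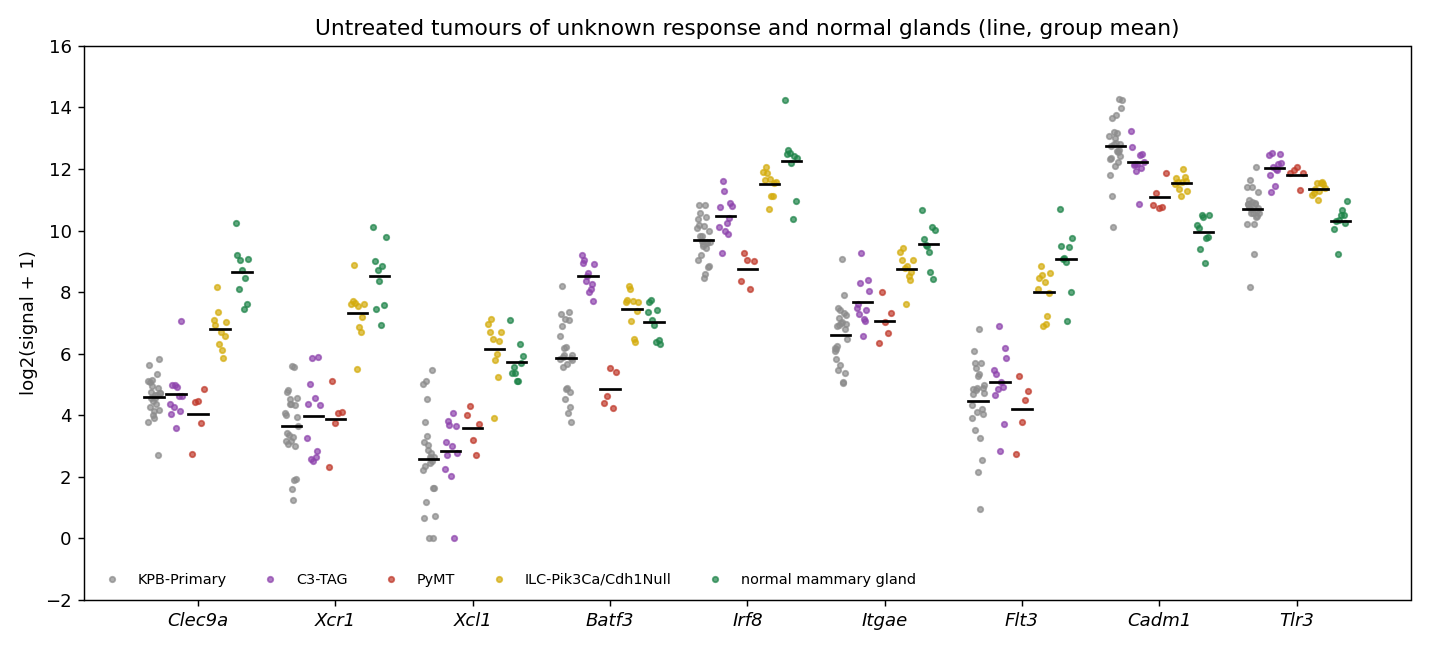
Points are single mice or gland samples as log2(signal + 1), by gene and coloured by tumour model, with glands in green and a black line at each group mean. Clec9a, Xcr1 and Flt3 are highest in the glands, Cadm1 and Tlr3 are higher in tumours, and ILC-Pik3Ca/Cdh1Null lies closest to the glands for Xcr1.

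Further genes of the pathway were read from lists chosen with earlier results of these data known, in the 7-day comparison of sensitive models, where 15.5% of all genes were called higher. All 6 partners of the members were higher, with a median difference of 0.89. They included Crtam, the T cell receptor for Cadm1, at 2.11 ± 0.43 (limma, adjusted p = 5.41e-05), Itgb7, the chain that pairs with Itgae, at 1.60 ± 0.28, and Cdh1, the E-cadherin that this integrin binds, at 0.98 ± 0.34. Flt3l, the ligand of Flt3, was 0.80 ± 0.19 higher (adjusted p = 0.000537). In T11 at 7 days 0 of these 6 were called, where 0% of all genes were called higher.

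Of 12 other genes of the cross-presenting programme, 6 were higher and 0 lower, with a median difference of 0.34. Id2, a regulator of dendritic and lymphoid development, was 1.41 ± 0.19 higher (limma, adjusted p = 1.96e-09), Itgax, the CD11c gene, 1.14 ± 0.24, Gcsam 0.95 ± 0.37 and Naaa 0.55 ± 0.16. Wdfy4, which is needed for cross-presentation, differed by 0.28 ± 0.18 (adjusted p = 0.224) and Cd24a by -0.25 ± 0.27. Of 12 genes of maturation and migration, 10 were higher and 1 lower. The chemokine genes Ccl22 and Ccl17 were 2.53 ± 0.40 and 2.27 ± 0.43 higher, the lymph node homing receptor Ccr7 1.83 ± 0.35 and the co-stimulatory receptor Cd40 1.42 ± 0.28. Fscn1, an actin bundler of mature dendritic cells that tumour cells also use, was the lower one, at -0.46 ± 0.10. Of 9 genes of peptide supply for MHC class I, 7 were higher and 1, Sec61a1, lower at -0.29 ± 0.08. Psmb9, a subunit of the immunoproteasome, was 1.64 ± 0.32 higher, the peptide transporter genes Tap2 and Tap1 each 1.34, and Cybb, of the phagosomal oxidase, 1.17 ± 0.20. In T11 at 7 days 0 genes of these 3 lists were called, where 0% of all genes were called higher.

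Markers of other cells moved in the same 7-day comparison. All 7 CD8 T cell markers were higher, and their summed level ran from 9.57 to 14.57 in treated mice (median 13.43) and from 6.05 to 12.73 in untreated mice (median 10.19). All 6 NK cell markers were higher, with summed levels of 9.18 to 13.14 and 7.59 to 11.77. Of 5 type 2 dendritic cell markers 4 were higher, with summed levels of 12.76 to 16.04 and 12.63 to 14.56. Higher too were 4 of 6 macrophage, 4 of 5 B cell and 3 of 4 regulatory T cell markers, and of 6 plasmacytoid dendritic cell markers 2 were higher and 2 lower. None of 6 epithelial or 4 endothelial markers was called, 1 of 5 fibroblast markers was lower, and Ptprc, the pan-leukocyte gene, was 0.68 ± 0.19 higher. No marker was at 0 throughout either arm, and the part of these cells in the members' differences was not tested.

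In the growth comparison of untreated tumours, where 4.29% of all genes were called lower, several list genes were lower at end stage. They were 5 of 12 other programme genes, 7 of 12 maturation genes, 7 of 9 peptide supply genes and 1 of 6 partners. Of markers, all 5 of type 2 dendritic cells, 5 of 6 of macrophages, 3 of 7 of CD8 T cells and 3 of 6 of NK cells were lower. The summed CD8 T cell level had a median of 8.49 at 3 days and 7.66 at end stage, with ranges of 3.01 to 13.06 and 3.25 to 11.50, and the part of these cells was not tested.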

How the data were processed

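Per the labels, RNA was extracted with Qiagen kits, made into Illumina TruSeq mRNA libraries and read from both ends on HiSeq instruments. The submitters' processing notes name Salmon, STAR, Picard and SAMtools, without versions, and the build mm10. Each deposited value is a signal per gene, scaled by the authors to the upper quartile of its library, per the file headers. Tumours (upper quartile 2049) and cultured lines (1000.0) were scaled separately and were not compared. Steps between small values gave whole reads for 28.2 to 74.0% of values within 0.01 reads, so no count test was used.

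Signal was analysed as log2 after adding 1, with limma 3.58.1 in R 4.3.3 and with Python 3.11.15. Genes above 0 in at least 4 samples and in the upper 66.7% by mean were tested, 20849 in all. A mean per group was fitted to 192 mice in 47 groups with 145 residual degrees of freedom, models were weighted equally, and p-values were adjusted by Benjamini-Hochberg and called at 0.05. Classes were compared over 12 model means. Glands were fitted with 50 of the 62 tumours of unknown response, those of KPB-Primary, C3-TAG, PyMT and ILC-Pik3Ca/Cdh1Null. P-values measure the spread between mice, or between models in the class comparison. The fit was tried on simulated independent noise without differences between models or flow cells. It recovered 64 of 100 genes changed by 1 log2 unit and 89 of 100 changed by 2, and it called 13 unchanged genes. Motifs were searched in RefSeq promoter windows, and gene positions are from GENCODE.

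The members and lists were chosen with earlier results of these data known. Named were all members, up to 4 called genes per list with the largest difference, and the 5 genes most like each of 4 members. Fscn1, Sec61a1, Wdfy4, Cd24a and Ptprc were named after their values were seen. Date-like names (39) and repeated symbols (28 entries, Itgam among them) were left out, and the 13 genomic libraries were not analysed here. Alternatives were other pseudocounts, no filter, median centring, a flow cell term, spread from the compared groups alone, and leaving out the libraries with T11 transcripts, T11-UV, or each mouse.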

Additional observations from a re-analysis of the deposited data

Results flagged for a closer look

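In groups of 4 to 10 mice at 7 days and in glands, 8 of 99 combinations of group and member had 1 mouse set apart from the rest of its group by Dixon's criterion, which chance alone meets in about 1 of 20. In T11-UV untreated at 7 days replicate 1 was the highest for Xcr1, at 7.62 with the next mouse at 4.57, and for Batf3, at 9.58 with the next at 6.36. In the BALB/c glands replicate 1 was the highest for Xcl1, at 7.11, and for Irf8, at 14.24. In the FVB glands replicate 2 was the highest for Batf3, at 7.42. In T11-Apobec untreated at 7 days replicate 3 was the lowest for Batf3, at 6.17. In T11 under therapy at 7 days replicate 3 was the lowest for Clec9a, at 4.78, and replicate 2 the lowest for Tlr3, at 8.96.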

How the results depend on the processing

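No paired analysis was possible because the labels give the groups no replicate numbers that are shared between arms. Of 102 counts of called members under alternatives that kept every mouse or left out a whole set of libraries, 92 stayed within 1.5 times the reported count and 10 did not. Of 918 values of single members under these alternatives 17 changed sign, as did 71 of 3564 with 1 mouse or model left out, and none of these was called under either setting. In KPB25L-UV at 7 days the count went from 1 to 0 with a pseudocount of 0.1, without the filter and with spread from the compared groups alone. In untreated growth it went from 3 to 5 with a pseudocount of 10 and to 6 with spread from the compared groups. For sensitive models at 3 days it went from 2 to 1 with flow cell as a term and to 0 with spread from the compared groups, and for resistant models at 3 days from 0 to 1 with flow cell as a term. In T11-UV it went from 6 to 0 with flow cell as a term and to 3 with spread from the compared groups. Over all genes, spread from the compared groups took the calls in KPB25L-UV from 4045 to 2 and in T11-UV from 1555 to 442. The cause was not tested, and the flow cell term could not be fitted for growth over the 7 models. Leaving out 1 mouse or model at a time gave counts of 6 to 9 for sensitive models at 7 days, 1 to 3 at 3 days, 0 to 2 in KPB25L-UV, 4 to 6 in T11-UV, 2 to 5 in growth, 0 to 4 between the classes and 8 in glands. In KPB25L-UV the count fell to 0 without treated replicate 2 or 4 or untreated replicate 2, 3 or 4 and rose to 2 without treated replicate 3. Growth gave 5 without KPB25L replicate 3, KPB25L-UV replicate 4 or T11 replicate 2 at 3 days, or without T11-UV replicate 2 or p53-2336R replicate 7 at end stage. Over all genes, leaving out 1 mouse or model gave 6328 to 8524 calls for sensitive models at 7 days and 145 to 6575 at 3 days. It gave 1914 to 5539 in KPB25L-UV, 792 to 2193 in T11-UV and 787 to 1318 in growth. Between the classes it gave 0 to 2228, and in glands 11492 to 12374. Over all genes in KPB25L-UV the split of 1667 higher and 2378 lower became 1375 and 3157 after centring. One read stood at a median of 1.01 log2(signal + 1) and at up to 4.37. Levels near or below 2, as in Xcr1 and Xcl1, thus rest on few reads, and in shallow libraries higher levels can too. Itgae reached 0 in untreated resistant mice at 3 days, and Flt3 in treated ones.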
